A study of Homo sapiens with 6 samples.

Results

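Transcripts of 37 autophagy genes were examined in MM.1S, a human multiple myeloma line of plasma cell origin, with and without CD38, the surface glycoprotein that degrades NAD. The genes were taken by symbol from a fixed list of autophagy machinery and cargo receptors, and all 37 were found among the 60671 genes of the table. One group of 3 libraries came from wild-type cells (MM.1S-WT-GFP-CBR, called WT here) and the other group of 3 from MM.1S-CD38 KO-GFP-CBR, 1 clone made by CRISPR/Cas9 editing (called CD38 KO). Both lines carried green fluorescent protein and the click beetle red luciferase from a lentivirus, the labels name no drug treatment, and live cells were sorted before RNA extraction, CD38-positive from the WT line and CD38-negative from the clone. The labels state that the RNA was sequenced to characterise the knockout phenotype and describe the replicates as biological samples prepared from the sorted populations. The p-values therefore weigh 1 clone and 1 WT population against the spread of those preparations.

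Autophagy encloses cytoplasm in a double membrane and delivers it to the lysosome. The ULK1 kinase complex starts the process, a PI3-kinase complex around BECN1 marks the membrane with the lipid PI3P, WIPI proteins read that mark, and ATG conjugation enzymes attach ubiquitin-like ATG8 proteins (the LC3 and GABARAP families) to the growing membrane. Cargo receptors such as SQSTM1 (p62) bind ubiquitinated cargo on one side and ATG8 proteins on the other, and are themselves degraded with the cargo. In plasma cells autophagy is known for limiting the endoplasmic reticulum and for sustaining cells with a heavy secretory load.

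CD38 itself, the check of the labels, had 3148, 2678 and 2545 counts in WT and 51, 80 and 48 in CD38 KO, in the direction of both the genotype and the sort. The libraries held 61515519 to 72335496 counts. Levels are given as CPM, the count relative to a library size adjusted by TMM, a correction for library composition. All 8 plasma cell markers were expressed, with summed levels of 6404 to 6462 CPM in WT and 9216 to 9347 CPM in CD38 KO. The sum hides unlike genes. Of the 8, 6 rose in CD38 KO at an edgeR adjusted p under 0.05, while SLAMF7 fell and SDC1 did not pass (log2 fold changes -0.37 and 0.036). Calls were common, with 44.4% of all tested genes passing, 22.8% higher and 21.6% lower. With a filter at 1 CPM in at least 3 libraries 58.1% passed. The B cell genes MS4A1, PAX5 and CD22, the T and NK cell genes CD3D, CD3G, NKG7 and KLRD1, and the myeloid genes CD14, LYZ and FCGR3A were at or near 0 in every library. The germinal centre gene BCL6 went from 5.72 ± 0.4897 to 10.8 ± 0.731 CPM, SD, n = 3. Of the other marker lists, the 6 for T and NK cells summed to 1.43 to 1.57 CPM in WT and 5.31 to 5.67 in CD38 KO, mostly from CD3E, the 5 myeloid markers to 2.25 to 2.96 and 1.13 to 1.69, and the 4 stromal markers to 3.49 to 4.51 and 5.38 to 6.398. In mean CPM, the myeloid gene ITGAM went from 1.64 in WT to 0.36 in CD38 KO and CSF1R from 0.86 to 0.92. The stromal gene PDGFRB went from 3.84 to 5.76.

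The promoter sequences of 4 genes are shown first, because they set the genes with the largest changes, WIPI1 and SQSTM1, beside the genes that carry the motif bound by the autophagy and lysosome regulators TFEB, TFE3 and MITF. Each is the 250 bases before a RefSeq transcript start in GRCh38.p14, written 5′ to 3′ on the gene's strand. Capitals mark CACGTG (the E-box core those factors bind), GGGCGG (the GC box) or CCAAT, each searched on both strands, and overlapping matches run together.
WIPI1 (chr17:68457497-68457746, minus strand): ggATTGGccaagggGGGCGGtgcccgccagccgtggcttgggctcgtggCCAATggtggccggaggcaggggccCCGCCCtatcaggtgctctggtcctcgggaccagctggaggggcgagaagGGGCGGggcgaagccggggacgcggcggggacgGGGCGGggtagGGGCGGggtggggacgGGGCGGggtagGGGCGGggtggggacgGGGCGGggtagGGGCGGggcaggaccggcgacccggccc
SQSTM1 (chr5:179820655-179820904, plus strand): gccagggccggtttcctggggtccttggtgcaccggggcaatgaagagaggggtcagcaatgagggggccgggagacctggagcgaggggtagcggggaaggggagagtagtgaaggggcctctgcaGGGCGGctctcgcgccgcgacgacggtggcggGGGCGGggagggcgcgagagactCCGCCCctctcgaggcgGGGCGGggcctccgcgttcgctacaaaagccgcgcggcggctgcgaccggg
ATG14 (chr14:55411831-55412080, minus strand): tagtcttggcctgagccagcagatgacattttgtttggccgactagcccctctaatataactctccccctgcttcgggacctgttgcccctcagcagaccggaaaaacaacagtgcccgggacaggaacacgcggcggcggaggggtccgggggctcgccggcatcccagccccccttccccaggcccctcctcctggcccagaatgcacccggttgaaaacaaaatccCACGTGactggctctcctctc
ATG3 (chr3:112561963-112562212, minus strand): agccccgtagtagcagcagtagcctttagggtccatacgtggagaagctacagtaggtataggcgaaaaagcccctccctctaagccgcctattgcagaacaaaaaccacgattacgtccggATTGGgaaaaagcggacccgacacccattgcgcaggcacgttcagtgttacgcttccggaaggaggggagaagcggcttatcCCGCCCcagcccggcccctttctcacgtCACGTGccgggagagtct
The WIPI1 stretch held 9 GC boxes and 2 CCAAT letters, and this SQSTM1 stretch, the most downstream of 3 windows for that gene, held 4 GC boxes. RefSeq windows of 250 bases before to 50 after a start were matched for 33 of the 37 genes by symbol. CACGTG occurred in the windows of 2 of these 33 genes (6.06%), ATG14 and ATG3, against 12.3% of the tested genes with a window, and the windows of both also held the longer form TCACGTG (6.94% of tested genes). The ATG3 window held 2 matches to CACGTG, 1 of them in the stretch printed. Neither WIPI1 nor SQSTM1 had CACGTG in its windows, which says only that these letters are absent there. GGGCGG was in the windows of 24 of 33 genes (72.7%, against 73.6% of tested genes) and CCAAT in 13 (39.4%, against 43.0%).

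WIPI1 rose and SQSTM1 fell in CD38 KO, each by more than 2-fold, and the other autophagy genes moved less or did not pass the test. Of the 37 genes, 36 had enough counts to be tested. In the knockout 5 of them rose and 9 fell at a threshold of 0.05 on the adjusted p of edgeR's quasi-likelihood test, 14 in all. Among all 20120 tested genes 44.4% passed, 22.8% higher and 21.6% lower, beside 38.9% of the autophagy genes. These 20120 include genes with few counts. With a filter at 1 CPM in at least 3 libraries, 58.1% of 13861 tested genes passed, beside 15 of 35 autophagy genes (42.9%). Changes of at least 0.5 on the log2 scale were found in 2 of the 36 (5.56%), against 23.4% of all tested genes. The median log2 fold change was -0.065 for the 36 genes and 0.000212 for all tested genes, and the median size, whatever the sign, was 0.1504 against 0.323. The groups did not overlap in CPM for 18 of the 36 genes, against 52.5% of all tested genes. With library size alone as the scaling, 22 of the autophagy genes passed, 4 higher and 18 lower, while the calls over all genes went from 4592 higher and 4342 lower to 3632 and 5570 and the median of all genes moved to -0.083. In bulk RNA a change in the number of cells that express a gene and in the amount per cell cannot be told apart.

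**Figure D1:**
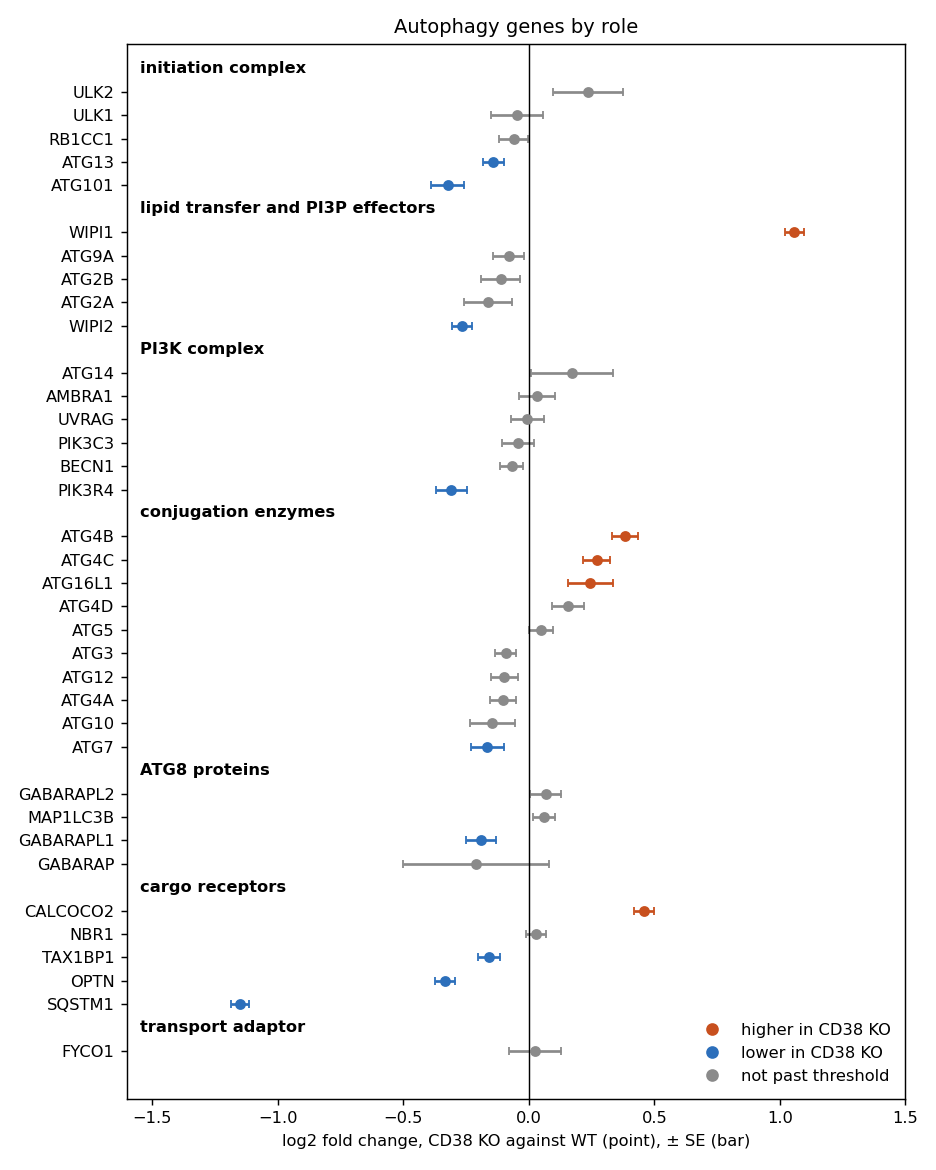
Log2 fold change of CD38 KO against WT (x axis) for the 36 tested autophagy genes, grouped by role, as points with the SE as bars and coloured by the edgeR call. WIPI1 at 1.06 and SQSTM1 at -1.15 stand apart, and every other gene lies between -0.33 and 0.46.

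WIPI1 is a propeller protein that binds PI3P on the forming autophagosome. WIPI1 (ENSG00000070540; chromosome 17, 68420948 to 68457513, minus strand, GENCODE 29 on GRCh38) was at 220.2, 219 and 223 CPM in WT, against 454, 473 and 452 CPM in CD38 KO. The 3 knockout values lay close together and all were above 2 times the highest WT value. The mean went from 221 ± 2.20 to 459.7 ± 11.8 CPM, SD, n = 3, and it rose (log2 fold change 1.06 with an SE of 0.0377, edgeR adjusted p = 3.10e-15). The log2 fold change stayed between 0.97 and 1.08 over the 15 alternative settings. Exons of WIPI1 overlap those of ARSG on the opposite strand over 828 bases, and ARSG held 1076 to 1364 counts per library, against 14525 to 29045 for WIPI1. Within 1 Mb of WIPI1, 7 of 22 tested genes were higher and 5 lower, with a median log2 fold change of 0.17.

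Of the other 4 lipid-handling genes 1 fell and 3 did not pass, read against 44.4% called over all tested genes. WIPI2, the relative of WIPI1 that recruits ATG16L1, was at 176, 173 and 168 CPM in WT, against 145, 145 and 141 CPM in CD38 KO. Its groups did not overlap, and it fell (log2 fold change -0.27 with an SE of 0.0405, edgeR adjusted p = 1.42e-05). ATG9A, a lipid scramblase carried on vesicles that seed the autophagosome, had a log2 fold change of -0.081, and the lipid transfer proteins ATG2A and ATG2B had -0.16 and -0.11; none of the 3 passed (edgeR adjusted p = 0.315, 0.191 and 0.257).

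**Figure D2:**
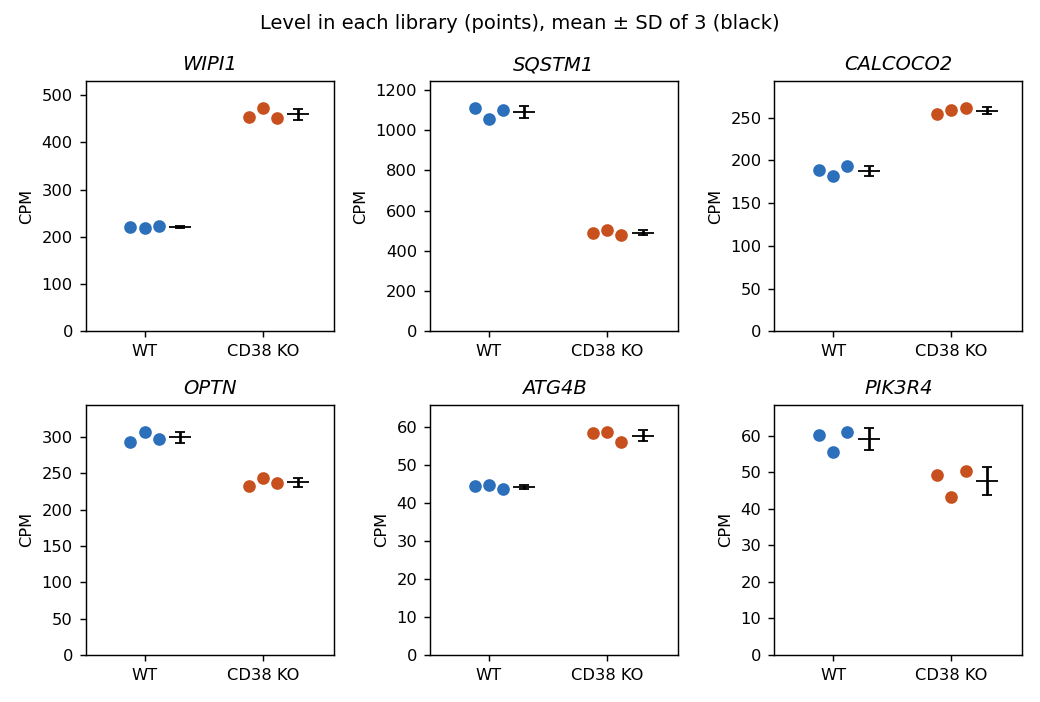
CPM (y axis, from 0) of 6 genes in each of the 3 WT and 3 CD38 KO libraries as points, with the mean ± SD of each group in black. The WIPI1, CALCOCO2 and ATG4B values of CD38 KO lie above all WT values, and those of SQSTM1, OPTN and PIK3R4 below.

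Of the 5 cargo receptors 3 fell, 1 rose and 1 did not pass. Over all tested genes 44.4% were called, 22.8% higher and 21.6% lower, and 58.1% with the filter at 1 CPM in at least 3 libraries. SQSTM1 (ENSG00000161011; chromosome 5, 179806398 to 179838078, plus strand) was at 1111, 1055 and 1099 CPM in WT, against 487, 504 and 481 CPM in CD38 KO. Every knockout library had less than 50% of the lowest WT value. The mean went from 1088 ± 29.6 to 490.5 ± 11.9 CPM, SD, n = 3, and it fell (log2 fold change -1.15 with an SE of 0.0365, edgeR adjusted p = 5.24e-16). The log2 fold change lay between -1.23 and -1.13 over the alternatives. The mRNA was measured here, not the p62 protein. Exons of MRNIP and MGAT4B on the opposite strand overlap those of SQSTM1 over 1582 and 105 bases. These held 693 to 1011 and 5806 to 8803 counts, against 29781 to 82249 for SQSTM1. Of 22 tested genes within 1 Mb of SQSTM1, 5 were higher and 2 lower (median log2 fold change -0.022).

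CALCOCO2 (NDP52), a receptor for invading bacteria and damaged mitochondria, was at 189, 182 and 194 CPM in WT, against 254, 259 and 262 CPM in CD38 KO. All knockout values were above all WT values, and it rose (log2 fold change 0.46 with an SE of 0.0395, edgeR adjusted p = 4.60e-09). OPTN (optineurin), which serves bacterial and mitochondrial cargo as well, was at 293, 307 and 297 CPM in WT, against 232, 244 and 236 CPM in CD38 KO. It fell (log2 fold change -0.33 with an SE of 0.0388, edgeR adjusted p = 3.91e-07), with no overlap between the groups. TAX1BP1, a relative of CALCOCO2 that takes up protein aggregates, was at 185, 178 and 198 CPM in WT, against 167, 164 and 171 CPM in CD38 KO. Its groups were close but did not overlap, and its lower level (log2 fold change -0.16 with an SE of 0.0446, edgeR adjusted p = 0.005904) did not pass without WT replicate 3 (adjusted p = 0.0789). NBR1, an aggregate receptor related to SQSTM1, was at 205, 195 and 204 CPM in WT, against 209, 199 and 208 CPM in CD38 KO. These ranges overlapped, and NBR1 did not pass (log2 fold change 0.028 with an SE of 0.0403, edgeR adjusted p = 0.617).

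The makeup of the receptor transcripts was alike within each group. Counts were divided by the merged exon length in GENCODE 29 to give RPKM (CPM per kilobase of exon), which allows levels to be set beside each other between genes, although the transcript lengths used by these cells are not known. SQSTM1 made up 53.9, 52.6 and 53.1% of the summed RPKM of the 5 receptors in WT, against 34.9, 35.4 and 34.2% in CD38 KO. CALCOCO2 made up 8.33% to 8.58% in WT and 16.7% to 17.1% in CD38 KO, NBR1 made up 8.87% to 9.04% in WT and 12.7% to 13.6% in CD38 KO, OPTN made up 21.2% to 22.8% in WT and 24.8% to 25.5% in CD38 KO and TAX1BP1 made up 7.397% to 8.003% in WT and 9.63% to 10.2% in CD38 KO. The 5 shares add up to the whole, and all but that of SQSTM1 were higher in CD38 KO, including that of NBR1, whose own level did not pass the test. SQSTM1 was still the most abundant receptor per length in every knockout library, ahead of OPTN.

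**Figure D3:**
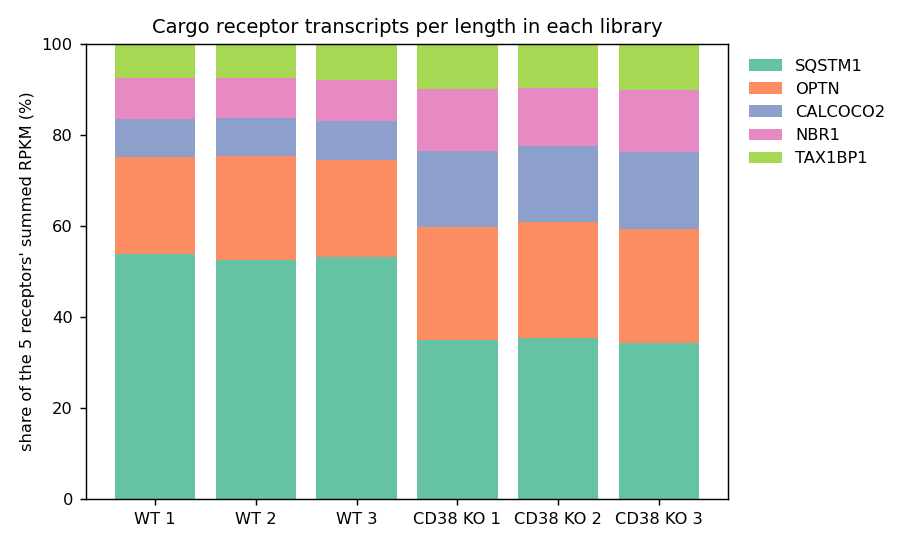
Stacked bars of the share (%) that each cargo receptor takes of the 5 receptors' summed RPKM, for each library. The SQSTM1 share lies between 52.6% and 53.9% in WT and between 34.2% and 35.4% in CD38 KO.

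Among the ATG8 proteins, which are attached to the membrane and bind the receptors, 1 of the 4 tested passed, beside 44.4% of all tested genes. GABARAPL1 was at 42.3, 43.5 and 42.2 CPM in WT, against 35.3, 37.02 and 39.8 CPM in CD38 KO. The groups did not overlap and it fell (log2 fold change -0.19 with an SE of 0.0601, edgeR adjusted p = 0.0128), though not without CD38 KO replicate 1 (adjusted p = 0.0595). MAP1LC3B, the LC3 form most used as an autophagosome marker, was at 111, 113 and 109 CPM in WT, against 111, 118 and 118 CPM in CD38 KO. The ranges overlapped and it did not pass (log2 fold change 0.061 with an SE of 0.0437, edgeR adjusted p = 0.2804). GABARAPL2 was at 55.4, 65.2 and 61.9 CPM in WT, against 59.1, 65.9 and 66.2 CPM in CD38 KO, again with overlap (log2 fold change 0.067 with an SE of 0.0623, edgeR adjusted p = 0.421).

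The 2 remaining ATG8 genes had few counts. GABARAP had 63, 70 and 59 counts in WT and 48, 64 and 37 in CD38 KO (log2 fold change -0.21 with an SE of 0.291, edgeR adjusted p = 0.598). Its count is uncertain. In GENCODE 29, 691 bases of its exons (30.5%) are also exons of AC120057.2, a gene on the same strand that had 0 counts in every library. A GABARAP pseudogene, AC096533.1, held 27 to 68 counts. How reads shared between genes were assigned is not given in the sources used here. MAP1LC3A had 0, 8 and 6 counts in WT and 3, 4 and 1 in CD38 KO and was too low to be tested. MAP1LC3B2, a near copy of MAP1LC3B, held 129 to 215 counts against 6999 to 8202 for MAP1LC3B, and reads may be shared between them.

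Of the 10 conjugation genes 3 rose and 1 fell (40% called, against 44.4% of all tested genes, 22.8% higher and 21.6% lower). ATG4 proteases trim ATG8 proteins before conjugation and later release them from the membrane. ATG4B, the main protease of the family, was at 44.5, 44.7 and 43.7 CPM in WT, against 58.4, 58.9 and 56.1 CPM in CD38 KO. All knockout values were higher, and it rose (log2 fold change 0.38 with an SE of 0.0517, edgeR adjusted p = 2.73e-06). ATG4C was at 45.7, 49.8 and 48.8 CPM in WT, against 58.9, 58.7 and 56.5 CPM in CD38 KO and rose (log2 fold change 0.27 with an SE of 0.0534, edgeR adjusted p = 0.000263), again without overlap. ATG4A and ATG4D had log2 fold changes of -0.10 and 0.16 and did not pass (edgeR adjusted p = 0.115 and 0.0564), although their groups did not overlap either.

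ATG7, the activating enzyme for ATG8 and ATG12, was lower (log2 fold change -0.17 with an SE of 0.0658, edgeR adjusted p = 0.0451), with 31.6, 31.2 and 29.1 CPM in WT and 28.2, 26.7 and 27.04 in CD38 KO. Leaving out 1 library ended that call in 4 of 6 cases (WT replicate 1 or 2, CD38 KO replicate 2 or 3), with a highest adjusted p of 0.138. Exons of VGLL4 on the opposite strand overlap those of ATG7 over 1596 bases (18.1%). VGLL4 held 2365 to 3339 counts, against 1588 to 2337 for ATG7, and was lower too (log2 fold change -0.19, edgeR adjusted p = 0.00771). The strand setting is not stated, and the part of this overlap in the ATG7 value was not tested. ATG16L1, which directs the conjugation to the membrane, was higher (log2 fold change 0.24 with an SE of 0.0894, edgeR adjusted p = 0.0309), and its call was lost in 6 of 15 alternatives, without any 1 of the WT libraries, without CD38 KO replicate 3, with library size alone and with no filter on low counts (highest adjusted p = 0.151). The conjugating enzymes ATG3 and ATG10 and the pair ATG12 and ATG5 had log2 fold changes of -0.093, -0.15, -0.10 and 0.048, and none of these 4 passed. ATG3 and ATG14 are the genes printed above with CACGTG, and neither passed.

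In the initiation complex 2 of 5 genes fell and none rose (40% called, against 44.4% of all tested genes, 21.6% lower). ATG101, which stabilises ATG13, was at 36.3, 32.8 and 35.3 CPM in WT, against 26.3, 28.6 and 28.6 CPM in CD38 KO. Its groups did not overlap (log2 fold change -0.32 with an SE of 0.0664, edgeR adjusted p = 0.000401). ATG13, the adaptor between kinase and scaffold, was at 141, 137 and 134 CPM in WT, against 124, 126 and 124 CPM in CD38 KO. It was lower by a small margin (log2 fold change -0.14 with an SE of 0.0417, edgeR adjusted p = 0.00848), which did not pass without CD38 KO replicate 3 (adjusted p = 0.0514). The kinases ULK1 and ULK2 and the scaffold RB1CC1 (FIP200) had log2 fold changes of -0.047, 0.24 and -0.061 and did not pass. ULK2 passed only without WT replicate 1, at 0.41 (adjusted p = 0.02401). Around ATG101 on chromosome 12, 8 of 25 tested genes within 1 Mb were lower and 5 higher, with a median log2 fold change of -0.31, close to that of ATG101; the part of this in its lower level was not tested.

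In the PI3-kinase complex 1 of 6 genes fell and none rose (16.7% called, against 44.4% of all tested genes, 21.6% lower). PIK3R4 (VPS15), the regulatory subunit, was at 60.3, 55.6 and 61.2 CPM in WT, against 49.2, 43.2 and 50.4 CPM in CD38 KO. The highest knockout value was below the lowest WT value (log2 fold change -0.31 with an SE of 0.0618, edgeR adjusted p = 0.000309). The lipid kinase PIK3C3 (VPS34), BECN1, the subunits ATG14 and UVRAG that give the complex its early and late forms, and the regulator AMBRA1 had log2 fold changes between -0.068 and 0.17, and none passed (edgeR adjusted p from 0.251 to 0.952). FYCO1, which links autophagosomes to kinesin motors, had a log2 fold change of 0.023 (edgeR adjusted p = 0.883).

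Per length, the 2 genes with the largest changes were also the 2 most abundant. SQSTM1 had 142 ± 3.87 RPKM in WT and 64.1 ± 1.55 RPKM in CD38 KO (SD, n = 3), and WIPI1 had 64.9 ± 0.647 RPKM in WT and 135 ± 3.47 RPKM in CD38 KO (SD, n = 3). SQSTM1 thus had rank 1 and WIPI1 rank 2 of the 37 in WT, and they exchanged places in CD38 KO. OPTN had rank 3 in both groups, and the kinases ULK1 and ULK2, with 1.34 and 0.762 RPKM in WT, had ranks 33 and 35 in both. The next highest level in either group was that of CALCOCO2 in CD38 KO, 30.98 RPKM.

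**Figure D4:**
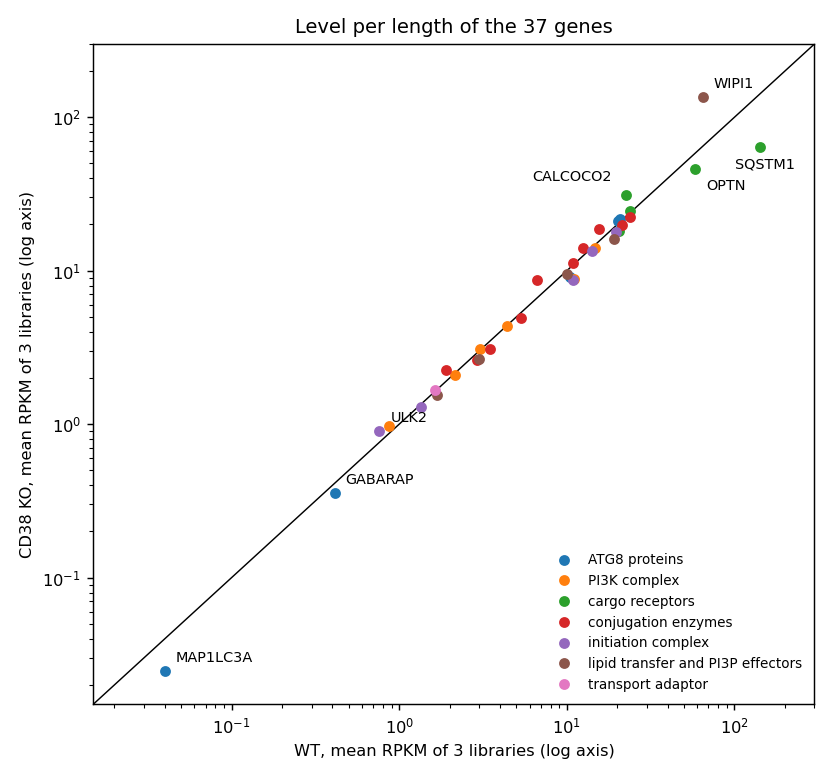
Mean RPKM of 3 libraries in CD38 KO (y axis, log) against WT (x axis, log) for the 37 genes, coloured by role, with the line of equal level. Most genes lie along the line, with WIPI1 above it and SQSTM1 below.

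Other genes of the pathway were read from 4 lists written by function, though with earlier results of these data known. Of 79 tested, 48 passed, 16 higher and 32 lower (60.8%, against 44.4% of all tested genes). The median log2 fold change was -0.082. With the filter at 1 CPM in at least 3 libraries 45 of these genes passed, and 58.1% of all genes then tested. Of the 17 tested core factors outside the main machinery, 7 rose and 4 fell (64.7% called, against 44.4% of all tested genes, 22.8% higher and 21.6% lower). DEPP1, a stress-induced gene linked to autophagy, was at 19.6, 16.7 and 17.3 CPM in WT, against 103, 109.9 and 105 CPM in CD38 KO, the largest change among the 79 genes tested here (log2 fold change 2.57 with an SE of 0.06196, edgeR adjusted p = 5.64e-18). TP53INP1, a p53 target that binds LC3, rose (243 ± 10.8 to 599.7 ± 55.8 CPM, SD, n = 3; log2 fold change 1.30). TBK1, the kinase that phosphorylates OPTN and SQSTM1, fell (80.6 ± 3.74 to 51.9 ± 2.27 CPM, SD, n = 3; log2 fold change -0.63), and WDR45 (WIPI4), a further PI3P reader, fell by 0.34 on the log2 scale. TECPR2, TMEM41B and TP53INP2 rose as well (log2 fold changes 0.66, 0.62 and 0.51). Within 1 Mb of TBK1, 11 of 17 tested genes were lower and none was higher, with a median log2 fold change of -0.60; the part of this in the TBK1 value was not tested.

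Of 17 tested genes that act when the autophagosome meets the lysosome, 10 fell and 1, the SNARE YKT6, rose (log2 fold change 0.22), which makes 64.7% called. Over all tested genes 21.6% were lower and 44.4% called in either direction. With the filter at 1 CPM in at least 3 libraries 58.1% of 13861 genes were called, 3901 of them lower. The median log2 fold change of the list was -0.19. Of 6 core subunits of the HOPS tether, which docks autophagosomes at lysosomes, 5 fell, read against the same 21.6%. VPS41 was at 172, 177 and 179 CPM in WT, against 100.3, 97.2 and 99.0 CPM in CD38 KO (log2 fold change -0.83 with an SE of 0.0415, edgeR adjusted p = 7.13e-13), VPS18 went from 69.3 ± 5.25 to 35.8 ± 1.49 CPM, SD, n = 3, and VPS39 from 191 ± 5.26 to 120.4 ± 5.703 CPM, SD, n = 3. VPS11 and VPS16 had log2 fold changes of -0.33 and -0.23, and VPS33A, at -0.23, did not pass (edgeR adjusted p = 0.0768). VPS18 and VPS39 are both on chromosome 15, where 32 of 51 tested genes within 1 Mb of VPS18 were lower (median log2 fold change -0.59) and 17 of 32 within 1 Mb of VPS39 (median -0.37), and what part these regions have in the 2 values was not tested. Around VPS41 on chromosome 7 the median was 0.11. The lysosomal membrane proteins LAMP2 and LAMP1 had log2 fold changes of -0.17, past the threshold, and 0.081, not past it.

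Of 17 receptors for organelles, 3 rose and 8 fell (64.7% called, against 44.4% of all tested genes, 22.8% higher and 21.6% lower). The share over all genes was 58.1% with the filter at 1 CPM in at least 3 libraries. PINK1, the kinase that marks damaged mitochondria, fell (30.2 ± 2.18 to 16.05 ± 0.154 CPM, SD, n = 3; log2 fold change -0.91), while PHB2, an inner-membrane mitophagy receptor, rose (0.43). Within 1 Mb of PHB2, 31 of 55 tested genes were higher and 1 lower, with a median log2 fold change of 0.52, above that of PHB2; the part of this in its value was not tested. The endoplasmic reticulum receptor ATL3 and the ubiquitin-binding adaptor TOLLIP had log2 fold changes of -0.37 and -0.34. RETREG1 (FAM134B), another receptor for the endoplasmic reticulum, fell as well, from 3.28 ± 0.456 to 1.21 ± 0.266 CPM, SD, n = 3.

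Nutrient and energy control was read on 28 genes, of which 5 rose and 10 fell (53.6% called, against 44.4% of all tested genes, 22.8% higher and 21.6% lower). The share over all genes was 58.1% with the filter at 1 CPM in at least 3 libraries. FNIP2, a folliculin partner that acts on the Rag GTPases, rose (115 ± 8.77 to 263 ± 11.2 CPM, SD, n = 3; log2 fold change 1.19). MITF fell (27.98 ± 0.872 to 12.9 ± 0.422 CPM, SD, n = 3; log2 fold change -1.12), its relative TFE3 rose (0.31), and TFEB did not pass (0.018; edgeR adjusted p = 0.848). The Rag GTPase genes RRAGA, RRAGB and RRAGC fell (-0.38, -0.23 and -0.47), and RRAGD did not pass (-0.049). The median of tested genes within 1 Mb was -0.24 for RRAGA, -0.24 for RRAGB, 0.089 for RRAGC and 0.034 for RRAGD. What part these regions have in the Rag values was not tested. MLST8, a subunit of both mTOR complexes, rose (0.43). Of the subunits of the energy sensor AMPK, PRKAG1 and PRKAG2 fell (log2 fold changes -0.50 and -0.47), as did PRKAA2 (-2.12; edgeR adjusted p = 0.00696), which had only 17, 23 and 19 counts in WT and 4, 6 and 2 in CD38 KO. PRKAA1, the other catalytic subunit, PRKAB1 and PRKAB2 did not pass (0.047, -0.13 and -0.20). Within 1 Mb of PRKAG1, 21 of 48 tested genes were lower and 3 higher (median -0.30), and what part this has in its value was not tested. The transcription factor gene FOXO3 fell (log2 fold change -0.11 with an SE of 0.0402, edgeR adjusted p = 0.0329), its mean level being 319.9 CPM in WT, against 297 CPM in the knockout. Its relative FOXO1 rose (log2 fold change 0.94 with an SE of 0.112, edgeR adjusted p = 6.55e-07), its mean level being 7.39 CPM in WT, against 14.2 CPM in the knockout. FOXO1 lies on chromosome 13, where 11 of 20 tested genes within 1 Mb were higher and 1 lower (median 0.44); the part of this in its value was not tested.

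**Figure D5:**
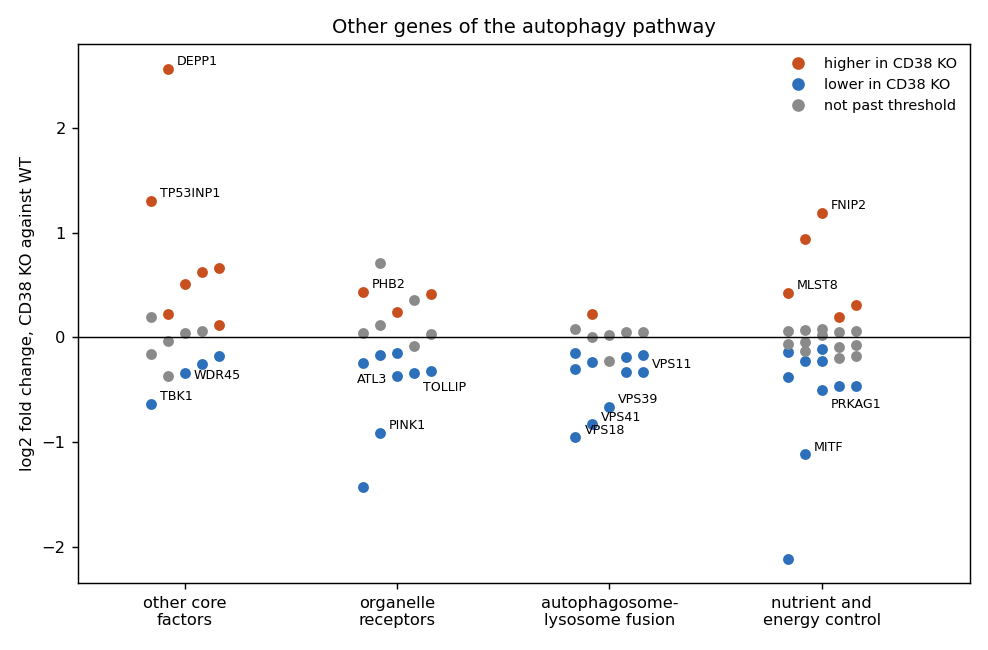
Log2 fold change of CD38 KO against WT (y axis) for 79 further autophagy genes in 4 lists (x axis), coloured by the edgeR call, with the 4 smallest adjusted p-values of each list named. The fusion list has 10 points called lower and 1 called higher, and DEPP1 at 2.57 is the highest point.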

How the data were processed

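RNA was sequenced in 3 WT and 3 CD38 KO libraries (SMARTer Ultra Low kit, according to the labels). The deposited values are raw counts of reads per gene. STAR 2.7.9a, Partek and DESeq2 appear in the submitters' processing notes, with no role stated. Neither build nor annotation, counter or strand setting is stated there, which leaves counts of overlapping or near-identical genes uncertain (exons of 20 of the 37 autophagy genes overlap another gene in GENCODE 29). Of 60871 lines, 200 repeated an identifier with equal counts and were dropped.

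CD38 KO was compared with WT over all genes in R 4.3.3 with edgeR 4.0.16 (filterByExpr, TMM, robust quasi-likelihood test, no covariate), with Benjamini-Hochberg adjustment over the 20120 tested genes and a threshold of 0.05. The procedure was tested on simulated counts. The SE is the log2 fold change divided by the square root of the F statistic. The alternatives used DESeq2 1.42.0, limma-voom (limma 3.58.1), a replicate block, RLE or upper-quartile factors, library size alone, no mitochondrially encoded genes, no filter on low counts or one at 1 CPM in at least 3 libraries, and left out each library in turn. The genes and lists were chosen with earlier results of these data known. All 37 genes are named, with values per library and full statistics for those past the threshold with a log2 fold change of at least 0.5 and for ATG8 genes and receptors, and each other list by its 4 smallest adjusted p-values; other genes named, values per library given for further genes, and the GC box and CCAAT searches, were chosen after seeing the data, as was the 1 Mb window. One B cell marker and the sum of its list are not reported here. Positions, exon lengths and neighbours come from GENCODE 29, which may not be the authors' annotation.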

Additional observations from a re-analysis of the deposited data

How the results depend on the processing

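In the 14 other fits that kept a composition factor, 12 to 15 autophagy genes were called (14 as reported); at most 6 were higher and at least 7 lower, with 11 to 14 of the same genes. With library size alone 22 were called, 18 of them lower, 13 of them the same genes, and calls over all genes were 39.5% higher, against 51.4% as reported. Leaving out 1 library gave 12 to 14 calls, 4 or 5 higher and 7 to 9 lower. WIPI1, SQSTM1, CALCOCO2, OPTN, ATG4B, ATG4C, PIK3R4, ATG101 and WIPI2 kept their call under all 15 alternatives. Of 539 values of single genes, 13 lost and 14 gained a call and 14 changed sign, each in a gene that did not pass. With library size alone the sign changed for AMBRA1 (-0.052), ATG5 (-0.036), MAP1LC3B (-0.023), GABARAPL2 (-0.017), NBR1 (-0.055) and FYCO1 (-0.0596). With 1 library left out (range over the 6 libraries) it changed for ULK1 (-0.11 to 0.031), ATG14 (-0.029 to 0.33), UVRAG (-0.027 to 0.0196) and FYCO1 (-0.0698 to 0.11), and with a filter at 1 CPM for UVRAG (0.00081). The cause was not tested. With the replicate number as a block 14 autophagy genes were called, 5 higher and 9 lower, and 8918 genes in all against 8934; same-numbered libraries did not deviate together (r = -0.021 to 0.034 across genes), and 2 of 6 libraries correlated best with their own number. Depth limits GABARAP and MAP1LC3A, where 3 counts equal 0.041 to 0.050 CPM per library.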

Other observations

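None of the 36 tested autophagy genes lies on chromosome 13, where the median log2 fold change of tested genes was 0.39, and the medians of the chromosomes that hold them ran from -0.11 to 0.10. For each of the 14 that passed, the log2 fold change is set here beside the median of the tested genes within 1 Mb. Among those that fell, the neighbours' median was below 0 for ATG101 (-0.32, neighbours -0.31), TAX1BP1 (-0.16, neighbours -0.16), ATG7 (-0.17, neighbours -0.19), PIK3R4 (-0.31, neighbours -0.16), WIPI2 (-0.27, neighbours -0.024), SQSTM1 (-1.15, neighbours -0.022) and ATG13 (-0.14, neighbours -0.0026), and above 0 for GABARAPL1 (-0.19, neighbours 0.44) and OPTN (-0.33, neighbours 0.15). Among those that rose, it was above 0 for ATG16L1 (0.24, neighbours 0.19), CALCOCO2 (0.46, neighbours 0.10) and WIPI1 (1.06, neighbours 0.17), and below 0 for ATG4B (0.38, neighbours -0.12) and ATG4C (0.27, neighbours -0.14). For ATG101, TAX1BP1, ATG7 and ATG16L1 the gene and its neighbours lay within 0.1 of each other on the log2 scale. The part of these regions in the values was not tested.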
